A study of Mus musculus with 12 samples.

Results

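The 5 genes described here encode secreted or shed factors with which bone cells control osteoclasts, the cells that resorb bone. They are Tnfsf11 (RANKL, the ligand that drives osteoclast formation), Tnfrsf11b (osteoprotegerin, a soluble decoy that binds RANKL), Csf1 (M-CSF, the survival and growth factor of osteoclast precursors), Il6 and Il11. They were chosen by name as a set of osteoclast-regulating secreted factors, and all 5 of 5 names were found among the 32248 rows of the count table. Only 2 of the 5, Tnfrsf11b and Csf1, passed the filter on low counts and were tested. The other 3 held between 0 and 16 counts in a library and are described by their counts.

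The cells were OCY454, an immortalised osteocyte-like line from mouse whose large T antigen is temperature sensitive, so that the cells divide at 33 °C and differentiate at 37 °C. Unedited cells (WT) were compared with Piezo1 KO cells, in which exons 19 to 21 of the gene of the mechanically gated channel Piezo1 had been deleted with CRISPR-Cas9. Messenger RNA selected by its poly(A) tail was read at day 1, day 14 and day 28 of culture at 37 °C, with 2 libraries in each of the 6 groups of genotype and day. All groups share the same parental line and growth medium, and the labels say neither how many edited clones were used nor whether replicates were separate cultures, so each p-value reflects no more than the spread of these samples, which may be technical. Fewer cells of a kind and less RNA per cell cannot be told apart in such bulk samples.

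RANKL acts on the receptor RANK of osteoclast precursors, and osteoprotegerin keeps it from doing so, so that the balance of ligand and decoy sets how much bone is resorbed. Osteocytes are known as a main source of RANKL in adult bone. M-CSF acts through the receptor Csf1r on the same precursors. Interleukin 6 and interleukin 11 bind their own alpha receptors, share the signalling chain gp130, and are known to raise RANKL in cells of the osteoblast lineage.

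Libraries held 8590132 to 15357433 counts, of which 1.12% to 2.31% came from the mitochondrial genome. Mean Piezo1 at day 1 was 215.1 CPM for WT and 169.5 CPM for KO. At day 14 these means were 208.2 and 110.8 CPM, and at day 28 they were 238.3 and 278.3 CPM. Its gene-level count includes all exons that the deletion leaves and reads from Ctu2 on the opposite strand if strand was ignored, so it barely checks the labels. CPM, the usual depth-scaled count, was computed on library totals scaled with TMM (edgeR), and values after ± are the SD over 2 libraries unless said otherwise. Of markers of the labelled cell type, the osteoblast list summed to 6450 to 37200 CPM and the osteocyte list to 103 to 184 CPM per library. Within the osteocyte list, Fam20c (306 to 810 counts), Pdpn (163 to 814), Dmp1 (50 to 184) and Phex (36 to 137) were counted in every library. The late osteocyte genes Sost and Fgf23 had only 4 to 20 and 0 to 2 counts. Blood-cell markers summed to 13.9 to 26.8 CPM, with Ptprc at 14 to 30 counts and the macrophage gene Adgre1 at 0 to 3 counts. The 7 lymphocyte markers held too few counts to test, with Cd3e at 0 counts in all libraries.

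On the GRCm38/mm10 assembly, Tnfrsf11b (ENSMUSG00000063727.3) lies on chromosome 15 from 54250619 to 54278484 on the minus strand and Csf1 (ENSMUSG00000014599.10) on chromosome 3 from 107741048 to 107760469 on the minus strand. Tnfsf11 (ENSMUSG00000022015.8) lies on chromosome 14 from 78277445 to 78308043 on the minus strand, Il6 (ENSMUSG00000025746.11) on chromosome 5 from 30013114 to 30019981 on the plus strand, and Il11 (ENSMUSG00000004371.15) on chromosome 7 from 4772373 to 4782859 on the minus strand. No other annotated gene overlaps these 5 spans. Promoter sequences from RefSeq (GRCm38.p6) were at hand for 4 of the 5, not for Tnfrsf11b. The 250 bases before the start site are shown for the abundant Csf1 and for 2 scarce genes, Tnfsf11 and Il6, 5′ to 3′ on the strand of the gene, with motif matches on either strand in capitals.

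Csf1: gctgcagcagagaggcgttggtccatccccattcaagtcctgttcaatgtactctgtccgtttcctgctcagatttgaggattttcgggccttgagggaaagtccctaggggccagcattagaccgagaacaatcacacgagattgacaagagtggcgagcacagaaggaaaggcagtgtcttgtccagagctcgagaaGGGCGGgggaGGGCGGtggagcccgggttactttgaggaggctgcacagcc
Tnfsf11: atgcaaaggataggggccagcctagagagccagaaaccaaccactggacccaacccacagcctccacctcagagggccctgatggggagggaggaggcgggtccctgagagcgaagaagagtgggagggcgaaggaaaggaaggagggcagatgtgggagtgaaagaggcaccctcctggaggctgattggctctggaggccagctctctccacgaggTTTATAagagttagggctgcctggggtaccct
Il6: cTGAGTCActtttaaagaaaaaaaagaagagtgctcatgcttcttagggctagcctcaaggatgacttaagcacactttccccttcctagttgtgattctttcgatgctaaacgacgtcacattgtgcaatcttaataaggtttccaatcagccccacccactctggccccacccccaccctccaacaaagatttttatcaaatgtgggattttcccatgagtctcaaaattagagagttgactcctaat

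These windows are chr3:107760470-107760719 on the minus strand for Csf1, chr14:78308044-78308293 on the minus strand for Tnfsf11 and chr5:30012864-30013113 on the plus strand for Il6. In the Csf1 window the capitals mark 2 GC boxes (GGGCGG), 51 and 41 bases before the start. In the Tnfsf11 window they mark a TATA box (TATAAA, read on the opposite strand), 32 bases before the start. In the Il6 window they mark an AP-1 match (TGANTCA), 249 bases before the start. The 6 motifs searched on both strands were these and RUNX (TGTGGT), TEAD (GGAATG) and CRE (TGACGTCA), none of which any window shown holds. Among all 32851 promoters of the same length, AP-1 letters occur in 6.75%, TATAAA in 12.4% and the GC box in 32.7%. The 3 windows share no motif. The ratio of observed to expected CpG was 0.519 for Csf1, 0.277 for Il6 and 0.184 for Tnfsf11, against a median of 0.373 over all promoters. A match is a description, not a bound site.

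Osteoprotegerin RNA was lower in the KO line at day 1 and day 28 but not detectably at day 14, and it fell in both lines by day 28. At day 1, replicates 1 and 2 of WT had 837 and 852 raw counts of Tnfrsf11b and those of KO 314 and 339. Day 14 gave 568 and 455 raw counts in WT and 452 and 539 in KO. Day 28 gave 355 and 208 in WT and 151 and 122 in KO. In WT the level was thus high through day 14 and low at day 28, whereas in KO it was highest at day 14. On the CPM scale, Tnfrsf11b at day 1 stood at 54.4 and 55.9 in WT and at 26.8 and 24.9 in KO. Day 14 values were 47.8 and 52.6 CPM for WT and 42.6 and 46.2 CPM for KO, and day 28 values 24.8 and 17.2 CPM for WT and 13.1 and 8.28 CPM for KO. The 2 lines did not overlap in Tnfrsf11b at any day, but their gap was narrow at day 14. With 2 libraries in a group this is no test, and how many of all genes do the same was not counted.

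At day 1 the mean of Tnfrsf11b was 25.86 ± 1.33 CPM in KO and 55.12 ± 1.05 CPM in WT (SD, n = 2), a log2 fold change of -1.09 ± 0.14 (SE, edgeR adjusted p = 1.51e-06), or 2.13-fold lower. At day 14 the means were 44.4 ± 2.5 and 50.22 ± 3.36 CPM, and the log2 fold change was -0.17 with a 95% interval from -0.45 to 0.11 (edgeR adjusted p = 0.302). At day 28 they were 10.66 ± 3.38 and 20.96 ± 5.38 CPM, again about as far apart on the log2 scale as at day 1 (-1.01 ± 0.17, edgeR adjusted p = 6.80e-05). The replicates of day 28 were the least alike also over all genes: of those at 10 CPM or more, 134 in WT and 41 in KO differed over 1.5-fold between replicates, against 0 to 7 at the other days. For Tnfrsf11b, leaving out 1 library at a time moved this day 28 difference between -1.35 and -0.69, with adjusted p at most 0.00609. Of all genes tested, 20.8% were called lower in KO at day 1, 25.9% at day 14 and 21.2% at day 28, so a lower level in KO was common among genes in general. Higher calls made up 19.5%, 23.8% and 19.8% of genes. With library totals in place of TMM, the share of higher genes among those called went from 48.4% to 38.3% at day 1 and from 48.2% to 32.9% at day 28.

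**Figure D1:**
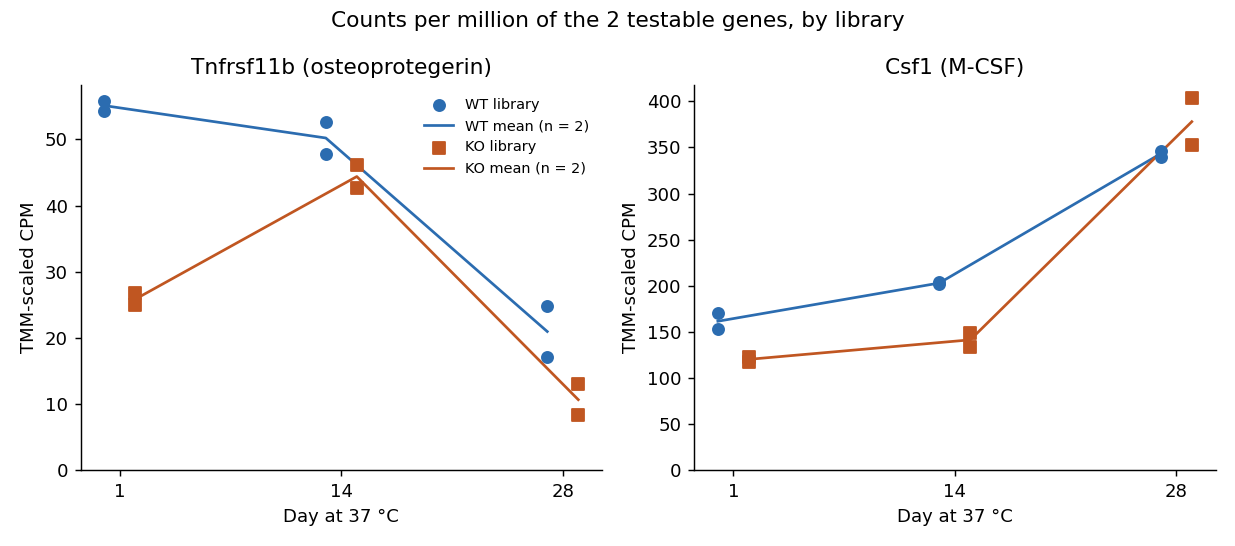
TMM-scaled CPM of Tnfrsf11b (left) and Csf1 (right) against day at 37 °C, with each library as a point and the mean of 2 libraries as a line, WT in blue and KO in orange, the 3 days evenly spaced and the lines set slightly apart for legibility. Tnfrsf11b is far below WT in KO at day 1 (25.86 against 55.12 CPM), close to it at day 14 and low in both lines at day 28, while Csf1 climbs to 343.3 CPM in WT and 377.9 CPM in KO.

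The course over time differed between the lines. In WT, Tnfrsf11b moved by -0.14 on the log2 scale from day 1 to day 14 (95% interval -0.41 to 0.13, edgeR adjusted p = 0.442) and then fell by 1.25 ± 0.14 (SE) to day 28 (adjusted p = 1.34e-06). In KO it first rose by 0.78 ± 0.14 (adjusted p = 1.61e-04) and then fell by 2.09 ± 0.16 (adjusted p = 5.94e-10), a 4.24-fold drop. The change from day 1 to day 14 was 0.92 ± 0.19 higher in KO than in WT (adjusted p = 0.00163), and that from day 14 to day 28 was lower by -0.84 ± 0.22 (adjusted p = 0.00685). The second of these rests on 1 library: without KO day 28 replicate 2 it was -0.52 with adjusted p = 0.0944. From day 1 to day 28 the net falls were -1.38 ± 0.14 in WT and -1.30 ± 0.17 in KO, and their difference was 0.08 with a 95% interval from -0.38 to 0.54. Of all genes, 34.1% were called between days 1 and 14 in WT and 37.5% in KO, and 34.7% and 50.7% between days 14 and 28. With library totals the share of higher genes among those called in WT between days 1 and 14 went from 53.3% to 41.1%. A differing change between the lines was called for 18.8% of all genes for the first interval, 24.1% for the second and 20.0% for the whole span.

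Ordered by mean CPM, Tnfrsf11b was highest in WT at day 1, followed by WT at day 14, KO at day 14, KO at day 1, WT at day 28 and KO at day 28. No neighbours in this order overlap between libraries, which is no test. WT at day 1 and day 14, and WT and KO at day 14, were not called apart. KO at day 1 and WT at day 28 were in none of the 12 comparisons. Over the 12 libraries the genes whose log2 CPM ran most closely with Tnfrsf11b, among 11609 genes averaging 1 or more in log2 CPM, were Nell2 (Pearson r = 0.985), Cercam (r = 0.979) and Trap1 (r = 0.978). Nell2, which encodes a secreted glycoprotein, averaged 98.8, 94.3 and 36 CPM in WT and 38, 78.2 and 9.81 CPM in KO at the 3 days, so it too was low at day 1 in KO and near WT at day 14. These correlations describe libraries that share 6 groups and carry no test.

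M-CSF RNA moved the other way over time. Csf1 rose from day 1 to day 28 in both lines, more in KO, and was lower in KO than in WT at days 1 and 14. At day 1, replicates 1 and 2 of WT had 2351 and 2599 raw counts of Csf1 (152.7 and 170.4 CPM) and those of KO 1438 and 1603 (122.7 and 117.8 CPM). Day 14 gave 2425 and 1745 raw counts in WT (204.3 and 201.7 CPM) and 1578 and 1565 in KO (148.8 and 134 CPM). Day 28 gave 4968 and 4122 in WT (346.6 and 340 CPM) and 4077 and 5947 in KO (352.4 and 403.5 CPM). All KO libraries lay below all WT libraries of the same day at days 1 and 14, and above them at day 28. Such an order of 2 and 2 libraries is no test either, and its share over all genes was not counted.

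The mean of Csf1 was 120.3 ± 3.46 CPM in KO and 161.6 ± 12.5 CPM in WT at day 1 (log2 fold change -0.43 ± 0.08, edgeR adjusted p = 1.26e-04), and 141.4 ± 10.5 against 203 ± 1.79 CPM at day 14 (-0.52 ± 0.08, adjusted p = 7.96e-06). At day 28 it was 377.9 ± 36.1 CPM in KO and 343.3 ± 4.66 CPM in WT, a log2 fold change of 0.14 (95% interval -0.01 to 0.29) that was not called (edgeR adjusted p = 0.129). Without KO day 28 replicate 1, the lower of the pair, it was 0.24 with adjusted p = 0.0248. Thus 2 of the 2 tested members were called at day 1, 1 at day 14 and 1 at day 28, where 40.3%, 49.7% and 41.0% of all genes were called.

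In WT, Csf1 rose by 0.33 ± 0.07 to day 14 (edgeR adjusted p = 0.00171) and by 0.76 ± 0.07 from there to day 28 (adjusted p = 1.72e-07). In KO the first rise was smaller, 0.23 ± 0.08 (adjusted p = 0.0217), and the second larger, 1.42 ± 0.08 (adjusted p = 2.07e-12). Neither first rise was firm: that of WT was 0.25 with adjusted p = 0.0515 without WT day 1 replicate 1, and that of KO was not called with library totals in place of TMM (0.19, adjusted p = 0.0675) or without any 1 of 3 of its 4 libraries, KO day 1 replicate 1 (0.26), KO day 1 replicate 2 (0.205) and KO day 14 replicate 1 (0.15). From day 1 to day 28 Csf1 rose 2.12-fold in WT (1.09 ± 0.07, adjusted p = 1.51e-10) and 3.14-fold in KO (1.65 ± 0.08, adjusted p = 2.09e-13). The rise was larger in KO by 0.57 ± 0.10 over the 28 days (adjusted p = 5.52e-04) and by 0.66 ± 0.10 from day 14 to day 28 (adjusted p = 7.33e-05), while the difference to day 14 was -0.10 (95% interval -0.32 to 0.13, adjusted p = 0.591). Between days 1 and 28, 48.0% of all genes were called in WT and 55.5% in KO.

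**Figure D2:**
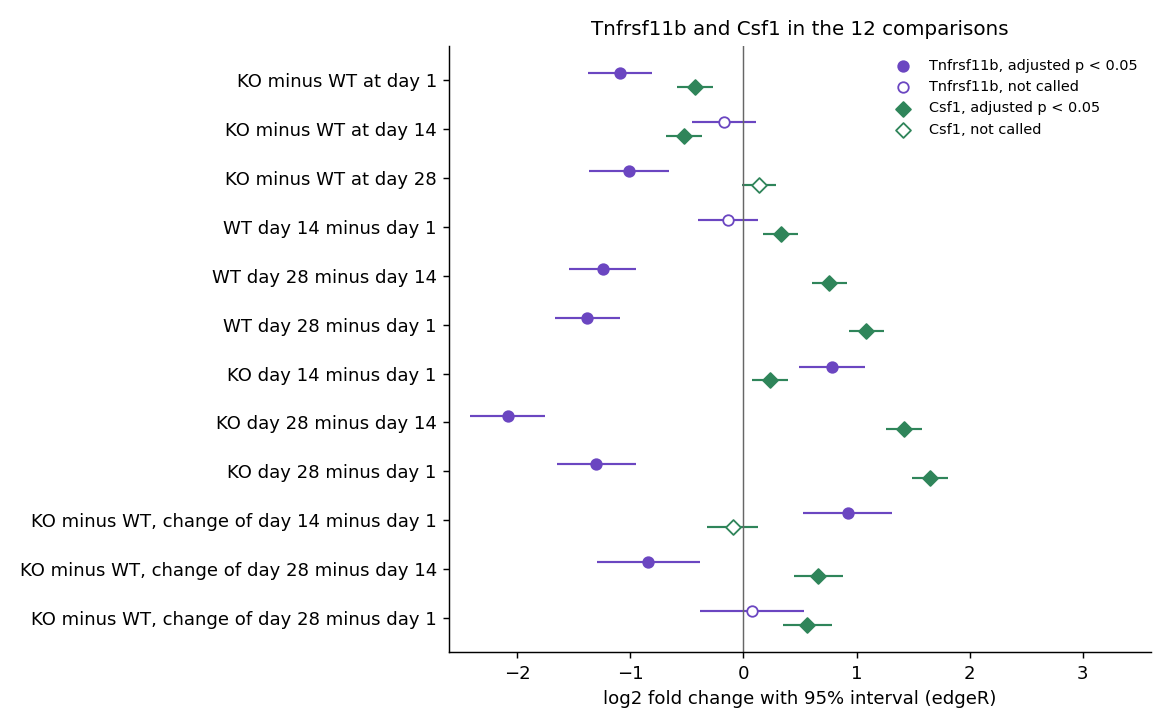
log2 fold changes of Tnfrsf11b (circles) and Csf1 (diamonds) with their 95% intervals from the edgeR fit in 12 comparisons, filled where the adjusted p is under 0.05 and open otherwise. The 2 genes lie on opposite sides of 0 from day 14 to day 28 in both lines, at -1.25 and 0.76 in WT and at -2.09 and 1.42 in KO.

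The order of Csf1 by mean CPM was KO at day 28, WT at day 28, WT at day 14, WT at day 1, KO at day 14 and KO at day 1. The top pair was not called apart, and WT at day 1 and KO at day 14 were in none of the 12 comparisons. The genes most alike to Csf1 over the 12 libraries were Sash1 (Pearson r = 0.988), Ifrd1 (r = 0.986) and Stt3b (r = 0.981). Stt3b, a catalytic subunit of the oligosaccharyltransferase that attaches N-glycans, averaged 171, 240 and 319 CPM in WT and 146, 170 and 372 CPM in KO at days 1, 14 and 28. This is again a description over libraries of the same 6 groups.

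Per kilobase of exon, a scale that allows genes to be compared, the level of Csf1 was above that of Tnfrsf11b in every library. In WT it was 1.5 and 1.63 times the Tnfrsf11b level at day 1, 2.28 and 2.05 times at day 14, and 7.47 and 10.6 times at day 28. In KO it was 2.44 and 2.52, 1.86 and 1.55, and 14.4 and 26 times. In these libraries the 2 lines thus changed order in this ratio, with KO above WT at days 1 and 28 and below it at day 14. The ratio was not tested, and at day 14 Tnfrsf11b itself was not called between the lines.

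RANKL RNA was scarce in all libraries and scarcer in KO. Tnfsf11 had 43 counts in all 12 libraries together, 37 in WT and 6 in KO. Replicates 1 and 2 of WT had 2 and 8 raw counts of Tnfsf11 at day 1, where those of KO had 1 and 0. Day 14 gave 7 and 6 in WT and 1 and 1 in KO, and day 28 gave 11 and 3 in WT and 0 and 3 in KO. Every WT library had at least 2 counts, no KO library had more than 3, and 2 KO libraries had none. Only WT day 1 replicate 1 and WT day 28 replicate 2 were thus not above all KO libraries. Such an order is no test, and how many of all genes do the same was not counted. For a group with no count, the limit that 0 allows (3 counts over a group) would be 0.0979 to 0.146 CPM.

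Pooled over the 3 days, Tnfsf11 stood at 0.477 CPM in WT and 0.0812 CPM in KO, 5.87-fold lower (exact binomial 95% interval 2.46 to 17, counting error only). By day the counts were 10 against 1, 13 against 2 and 14 against 3, and the ratios 8.26-fold (1.18 to 359), 7.06-fold (1.6 to 64.4) and 4.64-fold (1.3 to 25.2) lower in KO. When the low-count filter was left off, with 22900 genes tested, edgeR gave Tnfsf11 an adjusted p of 0.144 at day 1, 0.0587 at day 14 and 0.138 at day 28, none past the threshold (24.0%, 29.6% and 24.6% of genes were called in that fit). Averaged over the 3 days in the same fit, a comparison added after the counts had been seen, the KO level was lower with an edgeR adjusted p of 8.48e-04, in a comparison where 36.5% of all genes were called and 19.3% were lower. That call held without each of 11 of the 12 libraries and was lost without WT day 1 replicate 2 (adjusted p = 0.0545). No change of Tnfsf11 over time was detectable at this depth: from day 1 to day 28 the ratio was 1.62 in WT (0.67 to 4.08) and 2.89 in KO (0.232 to 152).

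**Figure D3:**
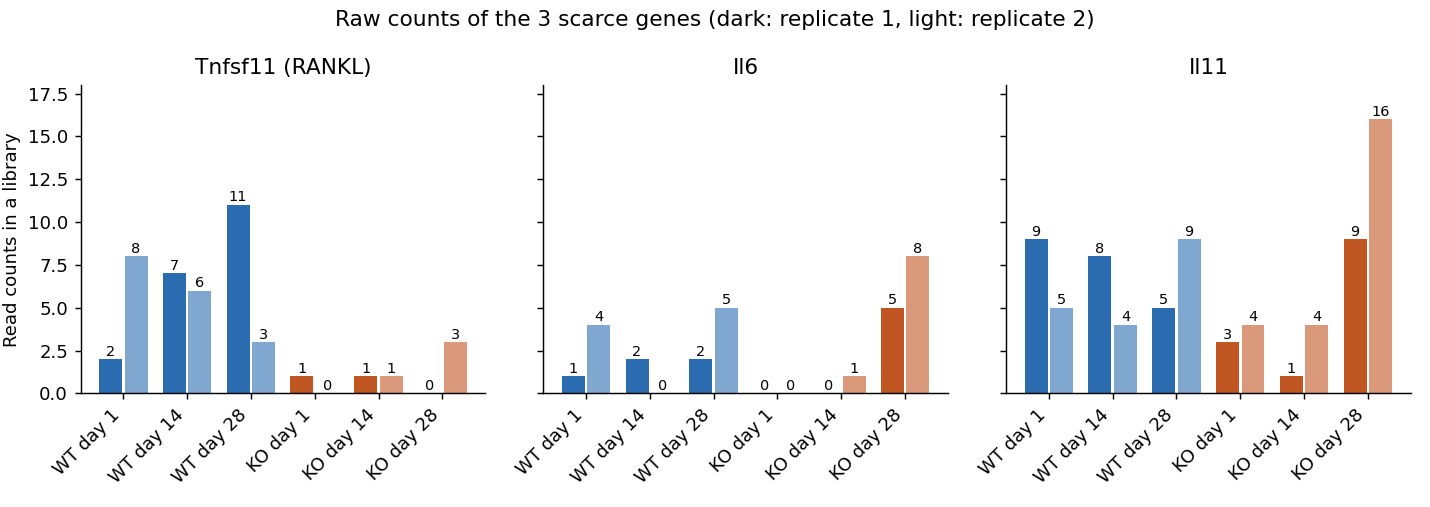
Raw read counts of Tnfsf11, Il6 and Il11 in each of the 12 libraries, WT in blue and KO in orange, replicate 1 dark and replicate 2 light, with the count above each bar. Tnfsf11 is at 2 to 11 counts in WT and 0 to 3 in KO, while Il6 and Il11 reach their highest counts, 8 and 16, in a KO library of day 28.

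Set against the decoy, Tnfsf11 counts were a small share of Tnfrsf11b counts throughout. As raw counts, not corrected for the exon lengths of 2236 and 2818 nucleotides, there were 0.592 Tnfsf11 counts per 100 of Tnfrsf11b in WT at day 1 (10 against 1689; exact binomial 95% interval 0.283 to 1.09), 1.27 at day 14 (13 against 1023; 0.674 to 2.18) and 2.49 at day 28 (14 against 563; 1.35 to 4.21). In KO they were 0.153 (1 against 653; 0.00387 to 0.856), 0.202 (2 against 991; 0.0244 to 0.731) and 1.1 (3 against 273; 0.225 to 3.25). Library by library the WT values were 0.239 and 0.939, 1.23 and 1.32, and 3.1 and 1.44, and those of KO 0.318 and 0, 0.221 and 0.186, and 0 and 2.46. The intervals of WT at day 1 and day 28 do not overlap, and in KO all 3 overlap. They cover counting error only and leave out the spread between libraries, so they do not test a change of the ratio. At day 28 in KO, all 3 Tnfsf11 counts came from 1 library. The ratio joins 2 genes chosen with earlier results in view and was not tested.

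**Figure D4:**
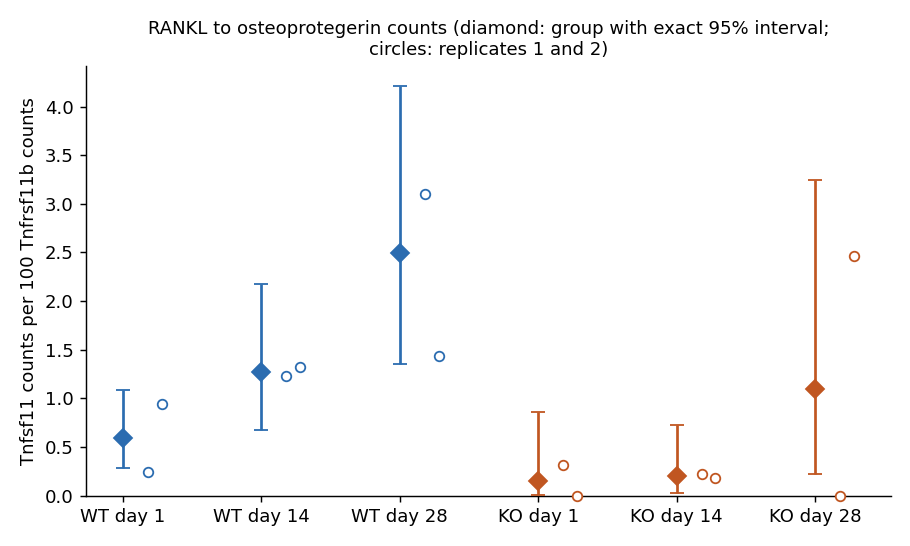
Tnfsf11 counts per 100 Tnfrsf11b counts in each group, with diamonds for the summed counts of 2 libraries, bars for their exact binomial 95% interval and open circles for replicates 1 and 2. WT goes from 0.592 to 2.49 between day 1 and day 28, and KO lies at 0.153 and 0.202 at days 1 and 14 with a wide interval at day 28.

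Il6 and Il11 were scarce too, and both had their highest counts in KO at day 28. Il6 had 28 counts in all, 14 in each line. Day 1 gave 1 and 4 raw counts of Il6 in WT and 0 and 0 in KO. Day 14 gave 2 and 0 in WT and 0 and 1 in KO, and day 28 gave 2 and 5 in WT and 5 and 8 in KO. Within KO the 2 libraries of day 28 stood above all 4 earlier ones. This order is no test, and how many of all genes do the same was not counted. The pooled Il6 level in KO at day 28 was 0.494 CPM, 4.17-fold above the floor of 3 counts over the group that stands for the 0 counts of day 1. The exact 95% interval of the inverse ratio, day 1 over day 28, reached up to 0.341, which allows a smaller difference. Against day 14 the level was 11-fold higher (95% interval 1.65 to 468). Without the low-count filter, edgeR called the change of Il6 in KO from day 1 to day 28 (adjusted p = 0.0109, with 33.2% of all genes called) but not that from day 14 (adjusted p = 0.0806). The first call held without KO day 28 replicate 1 and was lost without KO day 28 replicate 2 (adjusted p = 0.0619), KO day 1 replicate 1 (0.0698) or KO day 1 replicate 2 (0.0932). Il6 did not differ detectably between the lines at day 28, with 13 counts in KO and 7 in WT (ratio 1.87, 95% interval 0.693 to 5.53, adjusted p = 0.696).

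Il11 had 77 counts, 40 in WT and 37 in KO. Its raw counts in WT were 9 and 5 for day 1, 8 and 4 for day 14 and 5 and 9 for day 28, with overlapping days. In KO they were 3 and 4 for day 1, 1 and 4 for day 14 and 9 and 16 for day 28. Both KO libraries of day 28 were above all earlier ones of KO, an order that is again no test and whose share over all genes was not counted. The pooled level of Il11 in KO at day 28 was 0.95 CPM, 4.23-fold above day 14 (95% interval 1.59 to 14.2) and 3.44-fold above day 1 (1.45 to 9.41). Without the low-count filter, edgeR called both changes (adjusted p = 0.0248 from day 14, where 30.0% of all genes were called, and 0.0398 from day 1). The first call was lost without KO day 14 replicate 1 (adjusted p = 0.277) or KO day 28 replicate 2 (0.202). The second was lost without KO day 1 replicate 1 (0.161), KO day 1 replicate 2 (0.145) or KO day 28 replicate 2 (0.274). Between the lines Il11 was not called at any day in that fit (adjusted p = 0.681, 0.282 and 0.426), and the difference of the lines in its change from day 14 to day 28 was not called either (adjusted p = 0.185).

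The receptors through which these factors act were measured at very different levels. Per kilobase of exon, Tnfrsf11a (RANK) was at 0.0744 to 0.241 CPM and Csf1r at 0.291 to 0.552 CPM over the group means, with 4 to 15 and 19 to 40 counts in a library. The gp130 chain Il6st was at 17.7 to 35 CPM per kilobase, on the level of Csf1 (22.8 to 71.6) and far above its partners Il6ra (1.07 to 2.6) and Il11ra1 (3.46 to 5.38). Lgr4, which is also a receptor for RANKL, was at 3.45 to 5.25 CPM per kilobase. Thus the receiving chains of Il6 and Il11 were counted well in cells with few counts of the ligands, and RANK and Csf1r, the osteoclast-lineage receptors, were low.

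**Figure D5:**
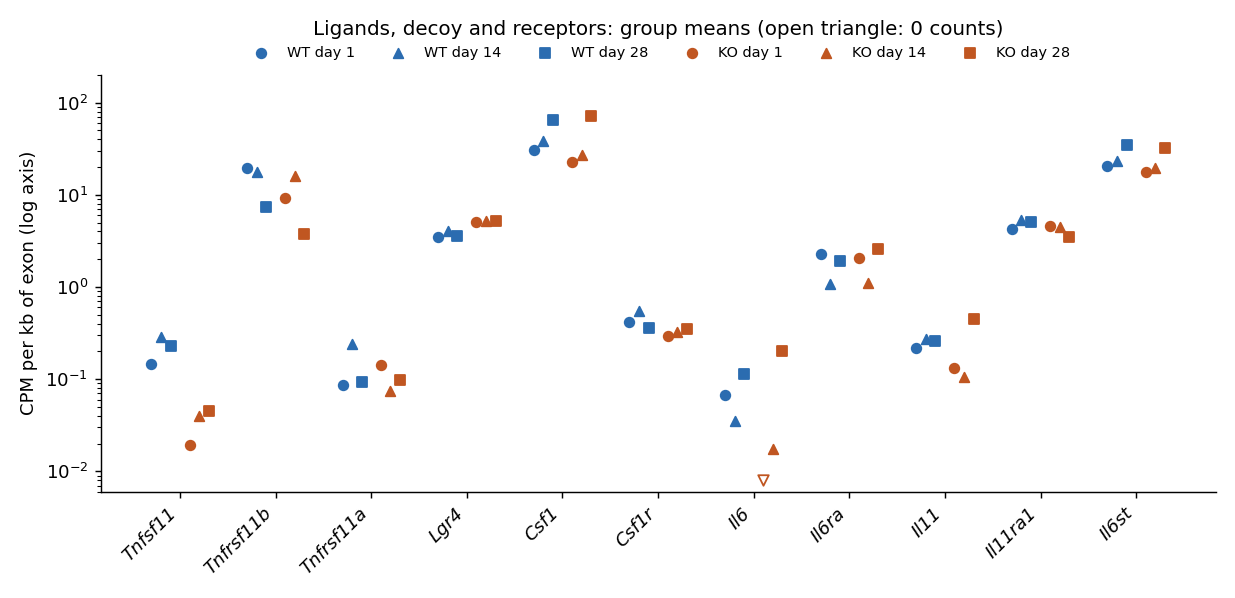
Group means (n = 2) in CPM per kilobase of exon on a log axis for the 5 factors and their receptors, WT in blue and KO in orange, with circles for day 1, upward triangles for day 14 and squares for day 28. The open triangle marks 0 counts of Il6 in KO at day 1 and is placed at the foot of the axis. Csf1 and Il6st lie highest, at up to 71.6 and 35, and Tnfsf11, Tnfrsf11a, Il6 and Il11 lie below 0.5.

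Of the 13 receptors and signal transducers listed, all 13 were tested. The called share was 38.5% at day 1, 46.2% at day 14 and 38.5% at day 28, near the 40.3%, 49.7% and 41.0% of all genes. At day 1, 1 was higher and 4 lower in KO and 8 were not called (median log2 fold change -0.11, over all genes -0.01). At day 14 it was 1 higher and 5 lower (median -0.20, over all genes -0.02), and at day 28 it was 2 higher and 3 lower (median -0.04, over all genes -0.01). The kinase gene Jak2 was lower in KO at day 1 (-0.82 ± 0.09, edgeR adjusted p = 3.08e-07) and day 14 (-0.70 ± 0.09, adjusted p = 2.1e-06). Lgr4 was higher in KO at day 1 (0.54 ± 0.12, edgeR adjusted p = 8.61e-04), day 14 (0.38 ± 0.12, adjusted p = 0.0127) and day 28 (0.55 ± 0.12, adjusted p = 8.58e-04). Its day 14 call was lost without KO day 14 replicate 1 (0.29) or WT day 14 replicate 1 (0.37). Ptpn11, the phosphatase SHP2, was lower at all 3 days, from -0.29 to -0.41. Over time Il6st rose in both lines, by 0.77 ± 0.07 in WT and 0.85 ± 0.07 in KO from day 1 to day 28, and so did Jak1 (0.72 ± 0.07 and 0.76 ± 0.07) and the feedback inhibitor Socs3 (0.89 ± 0.11 and 0.76 ± 0.11). In these 3 genes the 2 lines were not called apart in their change (adjusted p = 0.61 for Il6st, 0.825 for Jak1 and 0.639 for Socs3).

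Of 10 other ligands and receptors of the gp130 family, 7 were tested. In KO, 1 was higher and 3 lower at day 1, 1 higher and 1 lower at day 14, and 3 higher and 2 lower at day 28, which is 57.1%, 28.6% and 71.4% of the 7, where 40.3%, 49.7% and 41.0% of all genes were called. Lif, a cytokine that signals through gp130, was lower in KO at day 1 (-1.41 ± 0.24, edgeR adjusted p = 9.52e-05) and higher at day 28 (0.91 ± 0.18, adjusted p = 4.15e-04). Its mean in KO went from 2.58 to 5.50 and 16.3 CPM over the 3 days, against 6.82, 6.26 and 8.72 CPM in WT. The oncostatin M receptor gene Osmr rose from day 1 to day 28 in WT (0.97 ± 0.09) and KO (0.48 ± 0.10).

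Of 30 other secreted regulators of osteoclasts, 18 were tested and 12 had too few counts. At day 1, 5 were higher and 4 lower in KO, at day 14, 6 and 6, and at day 28, 3 and 10 (median log2 fold change -0.40, over all genes -0.01). The called shares were 50% at day 1, 66.7% at day 14 and 72.2% at day 28, against 40.3%, 49.7% and 41.0% of all genes. Sfrp1, a Wnt inhibitor that can also bind RANKL, was higher in KO at all 3 days, by 3.76 ± 0.14, 3.0 ± 0.14 and 1.96 ± 0.17. Vegfa was lower at all 3 days, by -1.72 ± 0.06, -0.90 ± 0.06 and -0.46 ± 0.06. Spp1 (osteopontin, by which osteoclasts attach) was lower at day 28 (-1.26 ± 0.08), as was Sema3b (-1.54 ± 0.11), while Wnt5a, known to raise RANK in precursors, was higher (0.86 ± 0.10). From day 1 to day 28 the stem cell factor gene Kitl rose in WT (1.25 ± 0.11) and KO (0.56 ± 0.10), and Tgfb1 fell in WT (-0.49 ± 0.11) and KO (-1.31 ± 0.11). The chemokine gene Cxcl12 fell in KO (-1.07 ± 0.08) and was at 0.03 ± 0.08 in WT (edgeR adjusted p = 0.781), and the lines differed in this change by -1.10 ± 0.12 (adjusted p = 8.19e-07).

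Of 20 upstream regulators of RANKL and osteoprotegerin, 18 were tested. They split into 2 higher and 6 lower in KO at day 1 and 5 in each direction at days 14 and 28, or 44.4%, 55.6% and 55.6% called, close to or somewhat above the share over all genes (40.3%, 49.7% and 41.0%). The gene of the parathyroid hormone receptor, Pth1r, fell from day 1 to day 28 in WT (-1.13 ± 0.17, edgeR adjusted p = 1.11e-05) and KO (-1.08 ± 0.17, adjusted p = 1.32e-05). Ptgs2, which encodes the inducible prostaglandin synthase COX-2, rose in both (1.93 ± 0.19 and 2.52 ± 0.18) and was higher in KO at day 14 (1.40 ± 0.18) and day 28 (0.86 ± 0.15). The vitamin D receptor gene Vdr was lower in KO at day 28 (-0.86 ± 0.18). Its call as higher in KO at day 1 (0.42 ± 0.16, edgeR adjusted p = 0.04) was lost without any 1 of the 4 libraries of that day (adjusted p from 0.052 to 0.263). Of the 3 sheddases that release membrane-bound factors, 66.7% were called at days 1 and 28 and 33.3% at day 14. Adam17 was lower in KO at day 1 (-0.23 ± 0.07), day 14 (-0.40 ± 0.07) and day 28 (-0.38 ± 0.07). Adam10 was higher at day 1 (0.38 ± 0.07) and Mmp14 lower at day 28 (-0.29 ± 0.07). The call of Adam17 at day 1 was lost without KO day 1 replicate 2 (-0.18) or WT day 1 replicate 1 (-0.19). That of Mmp14 at day 28 was lost without WT day 28 replicate 1 (-0.15). It was also lost in a fit to only the groups compared (-0.295, edgeR adjusted p = 0.0543). Overlaps with other genes were looked up for the members, the list genes named up to here and the most alike genes, not for genes named only as cell markers. Of those looked up, Jak1, Il6ra, Il11ra1, Csf1r, Wnt5a, Pth1r, Adam17, Cercam, Trap1, Sash1 and Ifrd1 share exon bases with a gene on the opposite strand. Spp1 shares them with one on its own strand. Whether counting used strand is not given in the sources used here, so their reads may be shared.

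Markers of other cells were compared beside these factors. The summed blood-cell markers were at 14.8 to 18.6 CPM in WT and 13.9 to 18.4 CPM in KO at day 1, at 16.9 to 26.8 and 15 to 15.8 CPM at day 14, and at 14.6 to 15 and 15.1 to 18.6 CPM at day 28. The osteoclast markers summed to 199 to 203 CPM in WT and 232 to 267 CPM in KO at day 1, to 254 to 276 and 237 to 262 CPM at day 14, and to 272 to 276 and 281 to 286 CPM at day 28. Of the 9 tested, 33.3%, 55.6% and 11.1% were called between the lines at days 1, 14 and 28. Over all genes these shares were 40.3%, 49.7% and 41.0%. At day 14, 4 of the 9 were lower in KO and 1 higher, with Acp5 at -0.67 ± 0.17 and Mmp9 at -0.47 ± 0.13. At day 1, 2 were higher in KO and 1 lower. Nfatc1 was higher in KO at all 3 days (0.27 ± 0.11, 0.43 ± 0.12 and 0.46 ± 0.12), and Ctsk at day 1 (0.47 ± 0.07). Itgb3 was lower in KO at day 1 (-0.71 ± 0.17) and day 14 (-0.62 ± 0.145). Ctsk (1201 to 2610 counts), Nfatc1 (213 to 679), Mmp9 (266 to 446), Itgb3 (103 to 479) and Acp5 (127 to 233) made up much of the osteoclast sum. The osteoclast genes Calcr, Ocstamp and Oscar had 0 to 3, 0 to 8 and 4 to 13 counts.

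The 6 endothelial markers summed to 4.22 to 6.1 CPM in WT and 2.5 to 3.41 CPM in KO at day 1. The sums were 10.4 to 14.2 and 2.31 to 3.02 CPM at day 14, and 24.5 to 27 and 10.3 to 11.6 CPM at day 28. Vwf, at up to 21.6 CPM, carried much of the sum in WT at day 28. Of the 4 tested, 50% were called from day 1 to day 28 in WT and 25% in KO, against 48.0% and 55.5% of all genes. Vwf rose over the 28 days in both lines and Kdr in WT. The defining Cdh5 and Pecam1 had 1 to 16 and 4 to 20 counts, and their changes in WT, -1.28 and -1.26, were not called. The adipocyte-lineage list differed between the lines at all 3 days. Lepr was lower in KO (-2.21 ± 0.22, -3.55 ± 0.22 and -3.33 ± 0.27) and Ebf3 higher (2.53 ± 0.30, 1.74 ± 0.35 and 2.59 ± 0.38), and Pparg had 50 to 104 counts in a WT library and 0 to 2 in a KO library. The summed osteoblast markers were at 14600 to 15000 CPM in WT and 14700 to 14800 CPM in KO at day 1, at 21000 to 22100 and 36900 to 37200 CPM at day 14, and at 7870 to 11000 and 6450 to 9000 CPM at day 28. Col1a1 and Col1a2, at up to 17900 and 14900 CPM, carried much of this sum. From day 1 to day 28, 7 of the 10 osteoblast markers fell and 3 rose in WT, and 6 fell and 2 rose in KO. That is 100% and 80% called, where 48.0% and 55.5% of all genes were called. Sp7 (-1.73 ± 0.17 in WT and -1.125 ± 0.16 in KO) and Alpl (-1.15 ± 0.14 and -1.78 ± 0.15) were among those that fell. Spp1 (1.53 ± 0.08 in WT and 0.74 ± 0.09 in KO) and Bglap2 (2.64 ± 0.15 and 2.08 ± 0.14) were among those that rose. The part of these markers in the courses of Csf1 and Tnfrsf11b was not tested.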

How the data were processed

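Poly(A) RNA of 12 libraries was measured, 2 for each of 6 groups. The deposited values are raw read counts per gene, and STAR, featureCounts, Subread, edgeR and the build mm10 are named, without roles, per the submitters' processing notes. Annotation, strand setting and multi-mapping reads were not given in the sources used here, so overlapping genes could share counts. All 12 library columns were used (0 left out), 3 transgene rows were left out, and samples were grouped by title.

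The tests used edgeR 4.0.16 under R 4.3.3. filterByExpr (minimum count 10, minimum total 15) left 13772 genes. After TMM scaling, 1 coefficient per group was fitted to all 12 libraries by quasi-likelihood (6 residual and 14.6 prior degrees of freedom). The 12 comparisons were tested with the two-sided quasi-likelihood F test, Benjamini-Hochberg adjusted over all genes tested, with a call at an adjusted p below 0.05. Each SE was taken as the absolute log2 fold change over the root of F. Alternatives used limma 3.58.1 (voom), DESeq2 1.42.0, other scalings and filters, a replicate block and each library left out. The test was checked on simulated data. Exon lengths, positions and overlaps came from GENCODE vM21 (GRCm38), promoters from RefSeq. Binomial and Poisson intervals (95%) and the floor of 3 counts cover counting error only.

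The members, lists, comparisons and tests were chosen with earlier results of these data known. Genes other than the members are named from lists by size of change (up to 6 a list and comparison, average log2 CPM of at least 1), with receptors and marker genes by level, and as the 3 most alike genes. A gene of the lists that this rule would name is not reported here by name.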

Additional observations from a re-analysis of the deposited data

Results flagged for a closer look

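The course over time differed between the lines, by the test of the difference itself, in 4 cases. Tnfrsf11b changed more upward in KO from day 1 to day 14 (0.92, edgeR adjusted p = 0.00163) and more downward from day 14 to day 28 (-0.84, adjusted p = 0.00685), a call that was lost without KO day 28 replicate 2 (-0.52, adjusted p = 0.0944). Csf1 rose more in KO from day 14 to day 28 (0.66, adjusted p = 7.33e-05) and from day 1 to day 28 (0.57, adjusted p = 5.52e-04). Each pair of contrasts shares the libraries of 1 day and is not independent. The gap test for single outlying samples needs at least 4 in a group and was not applied to groups of 2.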

How the results depend on the processing

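The 24 log2 fold changes of Tnfrsf11b and Csf1 were recomputed under 312 alternatives in all, of which 303 kept direction and call, and none moved by more than 0.344. Left-out libraries decided the rest, beside 1 change of scaling. Leaving out 1 library at a time, Csf1 ranged from 0.04 to 0.24 for KO minus WT at day 28, from 0.25 to 0.41 for WT day 14 minus day 1 and from 0.15 to 0.30 for KO day 14 minus day 1, which was 0.19 with library totals. The difference of the lines in the change of Tnfrsf11b ranged from -1.18 to -0.52 from day 14 to day 28 and from -0.26 to 0.39 from day 1 to day 28. Tnfsf11 counts per 100 of Tnfrsf11b were 0.239 or 0.939 in single WT libraries of day 1, 0 or 0.318 in those of KO day 1 and 0 or 2.46 in those of KO day 28. In the fits without the low-count filter, the log2 change of Tnfsf11 in KO ranged from -3.31 to 1.09 for day 28 minus day 14 and from -2.31 to 3.65 for day 28 minus day 1, which 6 counts in all cannot fix.

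Replicate numbers did not pair the libraries: the correlation of replicate deviations between groups ran from -0.0402 to 0.112 over 15 pairs of groups, with 1 above 0.1. With a replicate block Tnfrsf11b at day 14 was at -0.17, no call of either gene changed, and 5521 genes were called at day 1 against 5544. Fits to only the groups compared called 3612 genes at day 28 against 5641, and 4093 against 2594 for the difference in change to day 14, which leaving out KO day 1 replicate 2 or KO day 14 replicate 1 lowered to 1668 and 1679. For the whole span the 2761 genes became 1808 without WT day 1 replicate 1 or KO day 1 replicate 1 and 1691 without KO day 1 replicate 2. Library totals in place of TMM shifted the share of called genes that were higher in KO from 48.4% to 38.3% at day 1 and from 48.2% to 32.9% at day 28. Depth limits Tnfsf11, Il6 and Il11 throughout, as their wide intervals show.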
